A study of Mus musculus with 66 samples.

Results

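Gene expression in the cerebral cortex of Rorb h5/h5 mice was compared with that of DBA/1J wild-type mice. The members are the 6 libraries, of 66 in the series, that carry the tissue label cortex and the genotype label H5 (3 libraries) or DBA-WT (3 libraries). Each library is the polyadenylated RNA of one mouse aged 7 weeks, and each group holds 2 mice labelled female and 1 labelled male. Mice of both groups are of the DBA/1J strain. H5 mice are homozygous for a spontaneous germline mutation of Rorb, so that every tissue carries it, and they show a high-stepping gait. Brains were cut sagittally and the cortex, hippocampus and cerebellum were dissected from the same mice. The series also covers 4 other Rorb mutants with C57BL/6J controls, brain hemisections and spinal cord.

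Rorb encodes RORβ, a nuclear receptor that binds DNA as a monomer at a copy of the motif AGGTCA preceded by an A/T-rich stretch. In the neocortex it is best known as a marker of layer 4, the layer that receives much of the thalamic sensory input, and it takes part in giving layer 4 neurons their identity and in clustering them into barrels. The gene makes isoforms from alternative first exons, and Rorb1, which starts at exon 1a, is the main isoform of the brain. The h5 change is a T-to-C substitution within the Rorb1 start codon. The question addressed here is which cortical transcripts differ in mice that lack this start codon.

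The sequences below show the reference start of Rorb1 and the next ATG in its reading frame, because the deposited values count messages of the gene as a whole and cannot show which protein is made. They are from the GENCODE transcript ENSMUST00000112832, minus strand of chromosome 19, written 5′ to 3′ as mRNA with T, with the ATG in capitals. The start codon lies in exon 1 of 10 at chr19:19087920-19087922 of GRCm39. The next in-frame ATG is codon 75 of 459 coding codons and lies in exon 3, at chr19:18960716-18960718 of the same build.
Rorb1 start: agcggccacatcATGcgagcacaaattgaa
Next in-frame ATG: cttgccctaggaATGtcaagagatgctgta

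Before the comparison, the 6 libraries were examined for depth and for tissue. Total expected counts ranged from 37546946 to 43558243. Every library held 925 to 1069 CPM (library-scaled counts, with TMM factors) of Slc17a7, the vesicular glutamate transporter of cortical projection neurons. The summed level of 11 striatal markers, by contrast, differed among the controls. It was 187.6, 624.1 and 1200 CPM in DBA/1J libraries 1, 2 and 3 and 1209, 1249 and 1276 CPM in the H5 libraries, so that DBA/1J library 3 lies beside the H5 libraries while libraries 1 and 2 lie below them. For Drd1, a dopamine receptor of striatal neurons, the values were 10.2, 26.2 and 58.1 CPM against 57.9, 59.3 and 60.7 CPM. DBA/1J library 2 and H5 library 2 had the highest choroid plexus sums (1079 and 851.1 CPM, against 245.9 to 343.8 CPM in the others). DBA/1J library 1 also had the highest sums of oligodendrocyte markers (6300 CPM, against 3889 to 5132 CPM) and endothelial markers (659.5 CPM, against 403.7 to 480.1 CPM). H5 library 3 is labelled female but held 57.9 CPM of the Y-linked gene Ddx3y and no Xist. H5 library 2 held 5197 CPM of Malat1, against 8235 to 9041 CPM in the others. In bulk tissue, fewer cells of a type and less RNA per cell cannot be told apart.

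**Figure D1:**
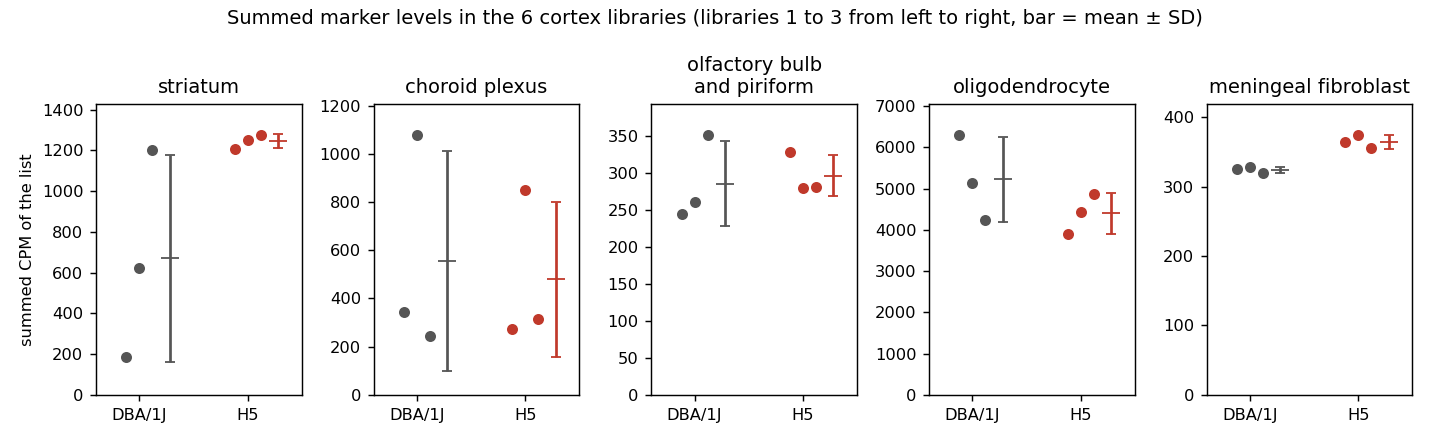
Summed CPM of 5 marker lists (y axis, linear from 0) in DBA/1J (grey) and H5 (red) cortex, with libraries 1 to 3 from left to right in each group and the mean ± SD as a bar. The striatal sum is 187.6 CPM in DBA/1J library 1 and 1200 CPM in DBA/1J library 3, beside 1209 to 1276 CPM in H5, and the choroid plexus sum is highest in library 2 of each group.

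Of 17220 genes tested, edgeR's quasi-likelihood test called 0 (0%) at a Benjamini-Hochberg adjusted p of 0.05, and the smallest adjusted p was 0.069. At an unadjusted p under 0.05, 492 genes were higher (2.86%) and 614 lower (3.57%) in H5. DESeq2, the tool named in the study's methods, called 60 genes (0.348%), 27 higher and 33 lower. In each of these 60 the groups did not overlap, against 1015 of all genes tested with every H5 library above every DBA/1J library (5.89%) and 1079 below (6.27%). By the edgeR estimate 13 of the 60 differed by more than 2-fold, and their median absolute log2 fold change was 0.76. Both counts turn on DBA/1J library 3. Without it edgeR called 221 genes, including the striatal markers Drd1 and Tac1, and DESeq2 called 678. With the summed striatal level as a covariate edgeR called 0 and DESeq2 53, of which 20 were among the 60. Without DBA/1J libraries 1 and 2, which leaves 1 control with a striatal level like that of H5 and takes the spread from the H5 libraries alone, edgeR called 3 and DESeq2 34, of which 9 were among the 60. Nothing in the labels says more of how the cortical pieces were taken, and the part of striatal content in the calls was otherwise not tested.

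The genes described are Rorb and the 14 further genes higher and 15 genes lower with the smallest edgeR p. All 30 were called by DESeq2, and none passed the adjusted threshold of the edgeR fit, where their adjusted p ran from 0.069 to 0.45. All 30 kept their direction in every alternative fit, the striatal covariate included. With that covariate DESeq2 called 18 of the 30. The 12 it did not call were Gfap, Fabp7, Tnc, Matn2, Mki67, Lxn, Dio2, Pdzph1, Tfcp2l1, Gpld1, Acat3 and Gem, and all 30 kept an unadjusted p under 0.05 by edgeR. With it the log2 fold change of Chrdl1 and Slc15a2 shrank by more than 1.5 times, to -0.70 and -0.37. Without DBA/1J libraries 1 and 2, against the 1 control left, the same held for Tnc, at 0.51, Chrdl1, at -0.78, and Slc15a2, at -0.39. Without library 2 of both groups it held for Slc7a11, at 0.38.

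Rorb itself was higher in H5. Rorb spans chr19:18930609-19111196 of GRCm38 (ENSMUSG00000036192). DBA/1J cortex held 80.9, 107 and 83.4 CPM (90.3 ± 14.1, SD, n = 3) and H5 cortex 144, 149 and 155 CPM (149.1 ± 5.38, SD, n = 3). Every H5 library was above every control. The level was 1.65-fold higher, a log2 fold change of 0.72 (SE 0.11), with an adjusted p of 0.12 by edgeR and 1.0e-06 by DESeq2. An exact two-sided permutation test gave p = 0.1, the smallest that 3 libraries against 3 allow. Reads were summed over the gene, so the values do not separate Rorb1 from the other isoforms.

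Of 5 receptors tested that bind this motif, Rorb included, 2 were higher, one of them Rorb, and 1 lower at an unadjusted p under 0.05, against 2.86% and 3.57% of all genes tested. Per length, Rora held 34.2 TPM (the length-scaled unit of RSEM) in DBA/1J and 31.5 TPM in H5, beside 19.2 and 33.1 TPM of Rorb, and its log2 fold change was -0.11. Nr1d1, the clock repressor REV-ERBα that binds the same motif, was 149, 153 and 134 CPM against 114, 133 and 121 CPM (log2 fold change -0.25, DESeq2 adjusted p = 0.47). Of 10 genes next to Rorb on chromosome 19, 0 had an unadjusted p under 0.05.

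Among layer 4 markers a few were lower while the list as a whole lay near 0. Of 10 markers 6 were lower and 4 higher. At an unadjusted p under 0.05, 3 were lower, namely Rspo1, Whrn and Scnn1a, and 0 were higher, against 3.57% and 2.86% of all genes tested. DESeq2 called Rspo1 and Whrn, against 0.348% of all genes tested. Both are also leading genes, chosen by their p. The summed level of the list was 320.5 to 452.5 CPM in DBA/1J and 398.7 to 452.2 CPM in H5, with the lowest value in DBA/1J library 1. The list median was -0.12, against -0.00053 over all genes tested. Rspo1 (ENSMUSG00000028871, chr4:124986401-125009102), an R-spondin that strengthens Wnt signalling, held 7.99, 8.29 and 5.26 CPM in DBA/1J and 2.20, 2.73 and 3.17 CPM in H5. The groups did not overlap and the level was 2.66-fold lower in H5 (log2 fold change -1.41, SE 0.21, DESeq2 adjusted p = 1.0e-06). Whrn, the scaffold protein whirlin, held 27.7, 33.7 and 30 CPM against 19.2, 20 and 17.3 CPM, again without overlap (log2 fold change -0.69, SE 0.10, DESeq2 adjusted p = 4.7e-06). Scnn1a, a sodium channel subunit whose promoter drives a widely used layer 4 Cre line, held 2.54, 3.97 and 2.75 CPM against 1.68, 2.62 and 1.70 CPM, and the groups overlapped. Hsd11b1 ran the other way, at 10.8, 8.18 and 6.26 CPM in DBA/1J and 9.00, 13.3 and 11.3 CPM in H5 (DESeq2 adjusted p = 0.78).

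Markers of the other layers were described in the same way. In layer 6, 11 of 12 markers were higher, with a median of 0.27, and 2 had an unadjusted p under 0.05. Ntsr1, the neurotensin receptor of corticothalamic neurons, held 10.5, 10.1 and 9.56 CPM against 14, 11.5 and 12.9 CPM (log2 fold change 0.35, DESeq2 adjusted p = 0.43). Several layer 6 and layer 5 markers were lowest in DBA/1J library 1, as the striatal markers were. Foxp2, which striatal neurons also express, held 11, 21.1 and 33.3 CPM in DBA/1J and 28.2, 37.2 and 31.4 CPM in H5, and Bcl11b, likewise, 35.4, 61.2 and 108 CPM against 101, 111 and 96.6 CPM. In layer 2/3, 2 of 12 markers had an unadjusted p under 0.05. Calb1, calbindin, held 124, 128 and 132 CPM against 168, 159 and 142 CPM (log2 fold change 0.29, DESeq2 adjusted p = 0.17), and the medians of layers 2/3 and 5 were 0.015 and -0.019. DESeq2 called 0 markers of layers 2/3, 5 and 6, and at an unadjusted p under 0.05 layer 5 had 1 of 14, lower. Over all genes tested 2.86% were higher and 3.57% lower at that p, so that the layer 5 count is near the background.

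Several collagens and other matrix genes were among the higher leading genes. Col1a1 and Col1a2 encode the chains of type I collagen. Col1a1 (ENSMUSG00000001506, chr11:94936224-94953042) held 10.1, 10.2 and 12.1 CPM in DBA/1J and 26.8, 20.6 and 16.6 CPM in H5, a 1.98-fold difference (log2 fold change 0.98, SE 0.17, DESeq2 adjusted p = 1.8e-05). Col1a2 held 20.9, 23.1 and 21.9 CPM against 34.4, 32.4 and 32.9 CPM (log2 fold change 0.60, SE 0.08, DESeq2 adjusted p = 1.1e-06). For Col3a1 (ENSMUSG00000026043, chr1:45311538-45349706), the chain of type III collagen, the values were 7.40, 7.63 and 8.96 CPM against 15.2, 15 and 14.9 CPM (log2 fold change 0.91, SE 0.11, DESeq2 adjusted p = 7.2e-09). The groups did not overlap for any of these chains, and the H5 libraries differed most among themselves in Col1a1.

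Chains of type VI collagen followed, Col6a2 with 17.5, 15.2 and 18.2 CPM against 27.8, 23.5 and 24.8 CPM (log2 fold change 0.58, SE 0.10) and Col6a1 with 71.5, 63.5 and 71.3 CPM against 114, 91.7 and 87.5 CPM (log2 fold change 0.51, SE 0.11). Their DESeq2 adjusted p was 0.0010 and 0.0071. Among the 43 chains tested, a list made after values were seen, 24 were higher and 19 lower, 7 higher and 1 lower had an unadjusted p under 0.05, against 2.86% and 3.57% of all genes tested, DESeq2 called 5, against 0.348%, and the median was 0.021. Tnc, tenascin C, held 6.36, 7.09 and 9.75 CPM against 15.8, 12.4 and 13.4 CPM (log2 fold change 0.85, SE 0.17, DESeq2 adjusted p = 0.0014, and 0.23 with the striatal covariate). Lamb1, a laminin chain of basement membranes, held 13.5, 14.7 and 17.5 CPM against 22.3, 21.9 and 21 CPM (log2 fold change 0.51, DESeq2 adjusted p = 0.019). Matn2, matrilin 2, held 16.5, 15.9 and 18.6 CPM against 22, 24.2 and 22.8 CPM (log2 fold change 0.44, DESeq2 adjusted p = 0.029, and 0.51 with the striatal covariate). Of the 29 tested matrix genes that are not collagens, 6 were higher and 1, Timp3, lower at an unadjusted p under 0.05, with a median of 0.0032.

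Types I and III collagen are made in the brain chiefly by fibroblasts of the meninges, and markers of these cells were followed as a list. Of 20 markers, which include Col1a1, Col1a2 and Col3a1, 14 were higher, 7 higher and 0 lower had an unadjusted p under 0.05, against 2.86% and 3.57% of all genes tested, and the median was 0.21. The 3 collagens are also leading genes, chosen by their p. The summed level of all 20 markers was 319.8 to 328.3 CPM in DBA/1J and 355.2 to 374.6 CPM in H5, without overlap. That sum includes the 3 collagens, themselves without overlap, so it is not separate from them. Markers other than collagens among the 7 were Islr, at 11.1, 9.94 and 10.1 CPM against 13.3, 13.4 and 11.9 CPM, Dcn, decorin, at 9.69, 10.7 and 14 CPM against 19.7, 17.3 and 12.6 CPM, Aox3 and Fmod. DESeq2 called the 3 collagens and none of the other members. How much meninges each piece carried cannot be read from the labels, and its part in the collagen values was not tested.

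Over the 14 markers of the astrocyte list 8 were higher and 6 lower, and the median was 0.039. At an unadjusted p under 0.05, 4 were higher and 1 lower, against 2.86% and 3.57% of all genes tested. DESeq2 called 3 higher and 0 lower, against 0.348% of all genes tested. These 3, Slc14a1, Gfap and Fabp7, are also leading genes, chosen by their p. The summed level of the list was 7648 CPM in DBA/1J library 1 and 5583 to 6165 CPM in the other 5 libraries. Slc14a1, a urea transporter, held 12.6, 11 and 10.3 CPM in DBA/1J and 22.1, 20.2 and 20.6 CPM in H5 (log2 fold change 0.89, SE 0.10, DESeq2 adjusted p = 1.8e-09). Gfap, the astrocytic intermediate filament, held 116, 104 and 122 CPM against 244, 164 and 168 CPM (114.02 ± 8.87 against 192.1 ± 44.9, SD, n = 3; log2 fold change 0.75, SE 0.15). Fabp7, a fatty acid-binding protein of radial glia and astrocytes, held 24.7, 17.7 and 25.6 CPM against 49.3, 42.1 and 32.6 CPM (log2 fold change 0.87, SE 0.17). DESeq2 adjusted p was 0.00022 for Gfap and 0.00033 for Fabp7, and with the striatal covariate 0.66 and 0.57, while their log2 fold changes were about as large with it, at 0.75 and 0.89. For Slc14a1 the DESeq2 adjusted p with that covariate was 5.3e-09. Serpina3n, a protease inhibitor induced in reactive astrocytes, held 15.8, 12.3 and 15.2 CPM against 25.3, 24.4 and 23.7 CPM (log2 fold change 0.76, SE 0.11, DESeq2 adjusted p = 1.1e-06).

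The lower leading genes Chrdl1, Dio2 and Slc15a2 are also known from astrocytes but are not on that list, and they are given here as single genes. Chrdl1, a secreted BMP antagonist, held 25, 15.3 and 13.7 CPM in DBA/1J and 7.90, 8.47 and 7.44 CPM in H5 (log2 fold change -1.18, SE 0.21, DESeq2 adjusted p = 8.8e-06), with DBA/1J library 1 well above the other controls. Dio2, the deiodinase that makes the active thyroid hormone T3 for the brain, held 120, 118 and 91.1 CPM against 45.9, 46.2 and 70.1 CPM (log2 fold change -1.02, SE 0.17, DESeq2 adjusted p = 1.1e-06). With the striatal covariate the DESeq2 adjusted p of Dio2 was 0.62 and its log2 fold change -0.85. Slc15a2, a peptide transporter, held 59.6, 45.8 and 40.5 CPM against 31.1, 30.5 and 30.9 CPM (log2 fold change -0.66, SE 0.13, DESeq2 adjusted p = 0.0011). Pan-astrocytic Aqp4, the water channel, was 131.8, 110.6 and 124.8 CPM against 133.0, 142.3 and 117.8 CPM. Of 11 thyroid hormone genes, Dio2 and Hr were lower at an unadjusted p under 0.05 and 0 were higher. Over all genes tested 3.57% were lower and 2.86% higher at that p. Dio2 is also a leading gene, chosen by its p, so that Hr alone is separate from that choice.

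Promoters of the leading genes were searched for the letters of the RORβ motif. RefSeq promoter windows (GRCm38.p6, 250 bases before to 50 after the start) were found for 21 of the 30 genes, 24 windows in all. The 6 letters AGGTCA, on either strand, occurred in 3 of these windows (12.5%) and in 16.3% of all 32851 windows. The longer TAGGTCA, which contains it, occurred in 1 (4.17%) and in 2.61% of all windows. The 3 windows are those of Fabp7, Gfap and Grin2c, printed 5′ to 3′ along the gene with the match in capitals, where TGACCT is the motif on the opposite strand. They lie at chr10:57784673-57784972 (plus strand), chr11:102897151-102897450 (minus strand) and chr11:115267194-115267493 (minus strand). The match begins 171 bases before the start of Fabp7, 85 before that of Gfap and 248 before that of Grin2c. A match is a description of letters only.
Fabp7: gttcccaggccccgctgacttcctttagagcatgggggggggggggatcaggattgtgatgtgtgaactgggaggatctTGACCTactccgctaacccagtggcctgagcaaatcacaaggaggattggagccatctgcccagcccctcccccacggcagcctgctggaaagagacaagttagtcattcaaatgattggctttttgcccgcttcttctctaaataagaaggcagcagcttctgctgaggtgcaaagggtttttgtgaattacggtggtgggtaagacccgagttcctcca
Gfap: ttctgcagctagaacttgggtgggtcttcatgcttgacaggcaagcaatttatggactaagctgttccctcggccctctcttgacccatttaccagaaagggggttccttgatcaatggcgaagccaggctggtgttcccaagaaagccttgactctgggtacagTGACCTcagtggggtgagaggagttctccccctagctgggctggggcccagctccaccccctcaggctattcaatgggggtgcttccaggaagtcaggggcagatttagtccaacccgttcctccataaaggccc
Grin2c: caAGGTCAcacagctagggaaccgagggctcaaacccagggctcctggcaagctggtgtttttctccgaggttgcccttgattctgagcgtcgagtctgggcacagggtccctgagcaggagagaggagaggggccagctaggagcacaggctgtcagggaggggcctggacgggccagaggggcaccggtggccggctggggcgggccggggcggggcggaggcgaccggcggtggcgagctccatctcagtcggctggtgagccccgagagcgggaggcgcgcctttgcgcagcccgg

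Apln and Heph, both X-linked, were among the largest differences and both were lower. Apln encodes apelin, a peptide made by endothelial tip cells. The gene (ENSMUSG00000037010, chrX:48025146-48034853 of GRCm38) held 27.3, 22.4 and 16.5 CPM in DBA/1J and 7.99, 7.12 and 8.53 CPM in H5, 2.80-fold lower (log2 fold change -1.49, SE 0.18, edgeR adjusted p = 0.069, DESeq2 adjusted p = 9.8e-13). The lowest control was library 3, the one control labelled male, and it too was above every H5 library. Of the H5 libraries, 2 held Ddx3y and almost no Xist, against 1 of the controls. With labelled sex as a covariate, which for H5 library 3 goes against its RNA, the log2 fold changes were -1.47 for Apln and -1.53 for Heph. All 14 endothelial markers, Apln included, were lower, as were 8625 of the 17220 genes tested, and the list median was -0.30. Of the 14, 2, Apln and Esam, had an unadjusted p under 0.05, against 3.57% lower over all genes tested. Apln is also a leading gene, chosen by its p. The summed level of the list was highest in DBA/1J library 1. Aplnr, the apelin receptor, was low, at 0.340, 0.897 and 0.502 CPM against 0.934, 1.35 and 0.898 CPM. Heph (ENSMUSG00000031209, chrX:96455436-96574485), the copper-dependent iron oxidase hephaestin, held 7.81, 5.65 and 5.15 CPM against 2.20, 2.28 and 1.92 CPM, 2.90-fold lower (log2 fold change -1.54, SE 0.19, DESeq2 adjusted p = 8.7e-09).

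**Figure D2:**
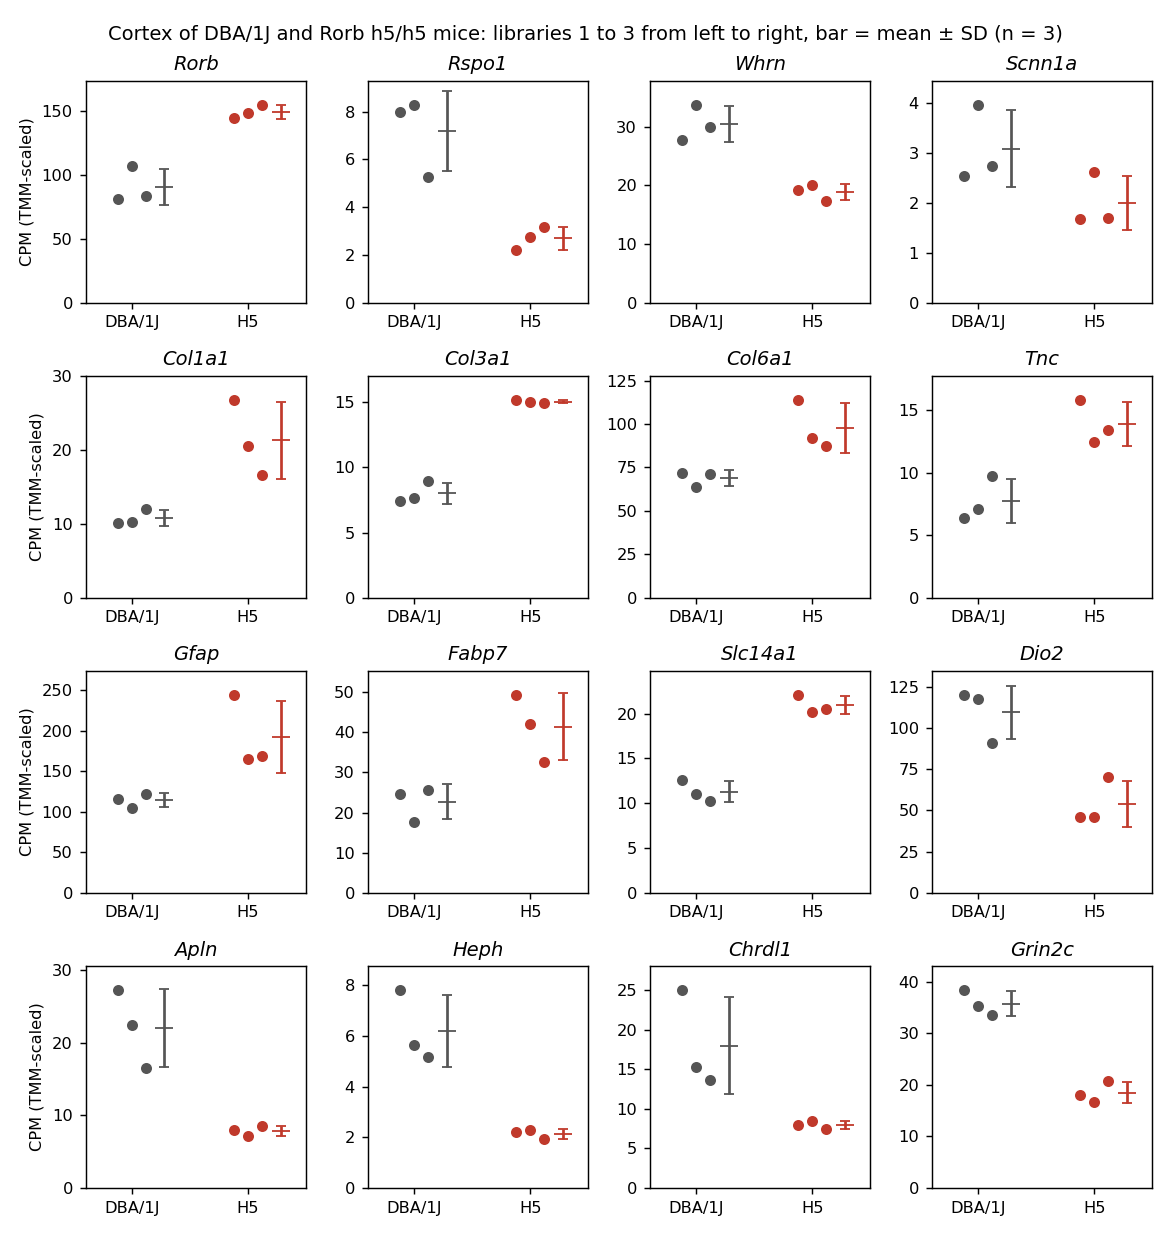
CPM (y axis, linear from 0) of 16 genes in the 3 DBA/1J (grey) and 3 H5 (red) cortex libraries, from library 1 at the left to library 3 at the right of each group, with the mean ± SD as a bar. The groups do not overlap in 15 of the panels, Scnn1a being the exception, and Rorb is at 80.9 to 107 CPM in DBA/1J and at 144 to 155 CPM in H5.

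Among genes of neuronal signalling, Grin2c had the smallest edgeR p of all genes tested, and by DESeq2 it came second after Apln. The gene (ENSMUSG00000020734, chr11:115249169-115267297) encodes GluN2C, an NMDA receptor subunit that is abundant in cerebellar granule cells and found in astrocytes and some interneurons of the forebrain. Cortex held 38.4, 35.2 and 33.6 CPM in DBA/1J and 18, 16.7 and 20.7 CPM in H5, 1.93-fold lower (log2 fold change -0.95, SE 0.10, edgeR adjusted p = 0.069, DESeq2 adjusted p = 1.7e-12). It was the one of 31 glutamate and GABA receptor genes that DESeq2 called, against 0.348% of all genes tested, and it was chosen by its p. At an unadjusted p under 0.05, Gabrb1 and Grm8 were higher and Grin2c lower, against 2.86% and 3.57% of all genes tested. Gabrb1 and Grm8 were both lowest in DBA/1J library 1. Kcnab3, a beta subunit of potassium channels, held 65.2, 69.7 and 54.3 CPM against 37.1, 40.7 and 40.4 CPM (log2 fold change -0.68, SE 0.10, DESeq2 adjusted p = 2.5e-06). Slc7a11, the cystine and glutamate exchanger xCT, held 43, 38.3 and 43.9 CPM against 58, 72.5 and 55.1 CPM (log2 fold change 0.57, SE 0.11, DESeq2 adjusted p = 0.0019).

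Further leading genes belong to no shared list. Pdzph1, a protein with PDZ and pleckstrin homology domains, had the largest fold of the 30 at low counts, 2.85, 2.15 and 1.77 CPM against 0.742, 0.510 and 0.624 CPM (3.61-fold lower, log2 fold change -1.85, SE 0.27). Tspan11, a tetraspanin, held 9.37, 11.9 and 10 CPM against 4.28, 4.61 and 5.89 CPM (log2 fold change -1.08, SE 0.15). Mki67, the marker of dividing cells, was low but higher in every H5 library, at 3.46, 3.67 and 3.80 CPM against 6.80, 5.19 and 5.86 CPM (log2 fold change 0.71, SE 0.14). Lower genes were also Acat3, the GTPase Gem, the transcription factor Tfcp2l1 and the phospholipase Gpld1, with log2 fold changes of -0.93, -0.91, -0.80 and -0.52. Lxn, the carboxypeptidase inhibitor latexin, was higher, with a log2 fold change of 0.52. In these genes too the groups did not overlap, and DESeq2 adjusted p ran up to 0.029. With the striatal covariate Tspan11 was called by DESeq2, and the others had adjusted p of 0.11 to 0.69.

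Lists that describe the state of cells rather than their type gave few calls. Of 26 endoplasmic reticulum chaperones and folding enzymes, the core targets of the unfolded protein response, 20 were lower and 6 higher, with a median of -0.063. A single member, Syvn1, had an unadjusted p under 0.05, which is a share near the 3.57% of all genes tested that were lower. Hspa5, the chaperone BiP, held 231.2, 268.7 and 304.6 CPM against 265.9, 215.9 and 279.9 CPM, so that the groups overlapped. Immediate early genes, which neurons switch on with activity, were lower for 17 of 18 members, 7 lower and 0 higher at an unadjusted p under 0.05, with a median of -0.48. Arc held 459, 547 and 218 CPM in DBA/1J and 257, 201 and 231 CPM in H5, with DBA/1J library 3 among the H5 libraries, and Egr1 409, 630 and 412 CPM against 340, 299 and 406 CPM. DESeq2 called none of the 18 or of the 26. In the glucocorticoid list 4 of 18 were lower at an unadjusted p under 0.05, Tsc22d3 among them at 82.2, 75 and 69.2 CPM against 47.4, 44.1 and 69.2 CPM, and the median was -0.25.

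**Figure D3:**
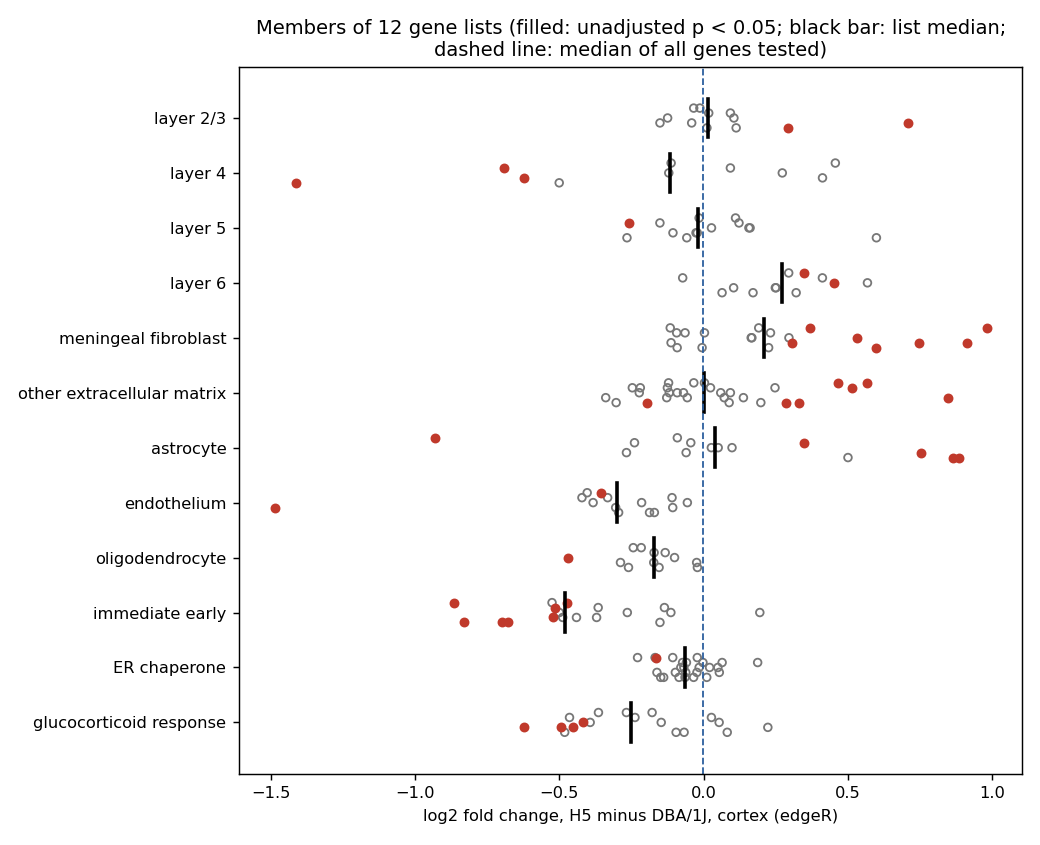
log2 fold change of H5 minus DBA/1J in cortex (x axis, edgeR estimate) for the members of 12 gene lists (rows), with members at an unadjusted p under 0.05 filled, the list median as a black bar and the median of all genes tested as a dashed line. Layer 4 has 3 filled members on the lower side, meningeal fibroblast 7 on the higher side and immediate early genes 7 on the lower side, while ER chaperones lie close to 0.

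The genes that the study names were followed as well. They were picked by the study from these samples among others, so their count is not independent evidence. Of 58 such genes 7 were higher and 15 lower at an unadjusted p under 0.05, against 2.86% and 3.57% of all genes tested, and DESeq2 called 4 and 6, against 0.348%. Beyond those given above, the called members were Pamr1, at 57.2, 58.1 and 40.8 CPM against 30.8, 32 and 36.7 CPM (log2 fold change -0.65), and the serine protease Htra1, at 120, 92 and 83.8 CPM against 72, 65.7 and 69.6 CPM (log2 fold change -0.51). Not called were Glul, glutamine synthetase (-0.48), Daam2 (-0.42), Ccdc3 (0.41), Nde1 (-0.38), 2900052N01Rik (-0.39), Dbi (0.35), Paqr8 (-0.31), Islr (0.31), Kcnk1 (-0.21), Setd7 (-0.18), Cdkn1a (-0.45) and Tsc22d3 (-0.50), each given as its log2 fold change. For Glul the values were 1007, 785 and 712 CPM against 562, 546 and 682 CPM, with DBA/1J library 1 again the highest.

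Brain hemisections of H5 and DBA/1J mice, which share no library with the cortex, offered the same contrast in tissue that contains cortex. The study's methods say that H5 brains were split, with one side frozen whole and the other dissected into regions, which would put hemisection and cortex in the same H5 brains. The labels differ from that, since the hemisections carry other mouse identifiers and ages of 8.4 to 8.9 weeks. The hemisections are therefore not treated as certainly independent mice. Of the 30 leading cortex genes 27 had the same sign there, and 20 had the same sign with an unadjusted p under 0.05, against 51.9% and 3.66% of 16770 genes tested in both. Leaving out any hemisection library kept these counts at 26 to 28 and at 18 to 21. Fold changes were mostly smaller than in cortex. They were 0.40 for Rorb, -0.86 for Apln, -1.04 for Heph, -0.75 for Dio2, 0.76 for Fabp7, 0.57 for Col1a1 and 0.63 for Col3a1, on the log2 scale. The 3 of opposite sign were Grin2c, Matn2 and Mki67. One hemisection, DBA/1J library 1, held a cerebellar marker sum of 53.6 CPM against 673.7 to 803.3 CPM in the others, and without it Grin2c changed sign to -0.11. Of the 10 layer 4 markers, 6 were lower and 1 higher in hemisections at an unadjusted p under 0.05, against 3.19% lower and 2.61% higher over all genes tested there. The 6 were Rspo1 (-0.79), Kcnh5 (-0.36), Kcnip2 (-0.29), Tox (-0.26), Zmat4 (-0.22) and Lmo3 (-0.15), and the higher one Hsd11b1 (0.68). Rspo1 is the member with such a p in both tissues.

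**Figure D4:**
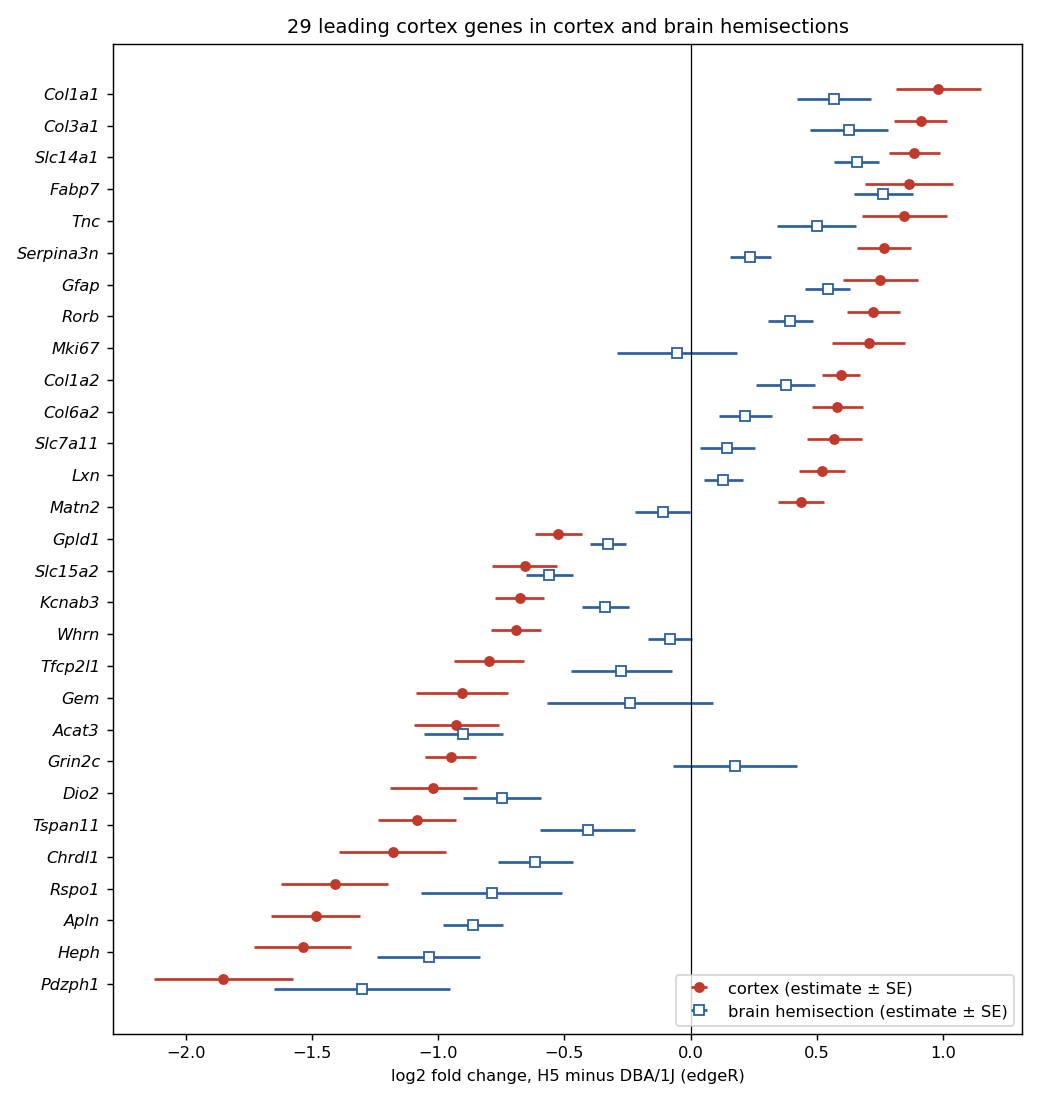
log2 fold change of H5 minus DBA/1J (x axis, edgeR estimate, bars ± SE) for 29 of the 30 leading cortex genes (rows) in cortex (red circles) and in brain hemisections (blue squares). In 26 rows the square lies on the same side of 0 as the circle, and the exceptions are Grin2c, Matn2 and Mki67.

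Hippocampus and cerebellum of the same 6 mice served to test whether the difference varied by region, with the mouse as a block. For cortex minus hippocampus 0 of 18366 genes passed (0%) by edgeR, with 762 at an unadjusted p under 0.05, and 0 by DESeq2. For cortex minus cerebellum 1 gene passed by edgeR (0.00544%), Grin2c, with 1413 at an unadjusted p under 0.05, and DESeq2 passed 52. Grin2c held 274, 275 and 233 CPM in DBA/1J cerebellum and 289, 306 and 262 CPM in H5 cerebellum, where the groups overlapped. In hippocampus it held 32.6, 30.1 and 28.8 CPM against 17.7, 14.5 and 15.9 CPM. The difference between cortex and cerebellum in its log2 fold change was -1.09 (SE 0.12), with an edgeR adjusted p of 0.0057, which was 0.15, 0.071 and 0.11 without DBA/1J mouse 1, DBA/1J mouse 2 and H5 mouse 1. Rorb was higher in each region, with log2 fold changes of 0.47 in hippocampus, at 31.1, 33.1 and 27.3 CPM against 43.2, 43.2 and 40.4 CPM, and 0.56 in cerebellum, at 16.6, 16 and 17.7 CPM against 24.7, 24.7 and 24.5 CPM. Its difference between regions did not pass (edgeR adjusted p = 1 and 0.76). Col1a1 was 0.05 in hippocampus and 0.20 in cerebellum, and Col3a1 -0.15 and 0.22, on the same log2 scale. Neither difference from cortex passed (edgeR adjusted p = 1 against hippocampus, 0.49 and 0.60 against cerebellum). Apln was -1.47 in hippocampus and -0.24 in cerebellum, and Slc14a1 0.61 and 0.15, with an edgeR adjusted p of 0.080 for both differences between cortex and cerebellum. Fabp7, Gfap and Serpina3n were higher in cerebellum too, at 0.78, 0.34 and 0.97, and edgeR called Fabp7 there (adjusted p = 0.044). Dio2 and Kcnab3, lower in cortex, were at -1.7e-05 and 0.085 in cerebellum. Rspo1 was tested in hippocampus, at 0.45, and its difference from cortex had an edgeR adjusted p of 1.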

How the data were processed

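RNA was measured by poly(A) RNA-seq (KAPA libraries, NovaSeq, paired ends) in 6 cortex libraries. The authors trimmed reads with Trim Galore, checked them with FastQC, aligned them with STAR to GRCm38 and estimated expected counts and TPM per gene with RSEM, and these values were deposited as 1 file per library. The annotation release is not given in the sources used here. RSEM shares reads among similar genes, so values of near-identical copies are estimates. Expected counts were rounded (5.01% of cortex values were not whole). Symbols came from GENCODE by Ensembl identifier (41403 of 45706), and GRCm38 positions and promoters from RefSeq by symbol.

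The main test was edgeR 4.0.16 (R 4.3.3), with filterByExpr, TMM factors and the quasi-likelihood test on the 6 cortex libraries, adjusted by Benjamini-Hochberg over 17220 genes at 0.05. SE is the log2 fold change over the square root of F. DESeq2 1.42.0 was the alternative. Regional differences were fitted with the mouse as a block. Named genes were Rorb and, among genes with a mean of at least 1 CPM, those with the smallest edgeR p, 15 per direction with Rorb. Members and lists were chosen with earlier results of these data known. Libraries of a group are separate mice, which also differ in labelled sex and identifier series, and p-values measure the spread between them. Counts are not molecules with identifiers. No cortex library pair of 15 was identical. Alternatives are given in the closing section, and the pipeline was tested on simulated data. Results for some genes are not reported here.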

Additional observations from a re-analysis of the deposited data

Results flagged for a closer look

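The effect of h5 on Grin2c differed between cortex and cerebellum of the same mice by the edgeR test of the difference itself. The log2 fold change in cortex minus that in cerebellum was -1.094 (SE 0.12, edgeR adjusted p = 0.0057), with -0.95 in cortex and 0.13 in cerebellum. In cortex all 3 H5 libraries were below all 3 controls, and in cerebellum the groups overlapped. Leaving out 1 mouse at a time gave -0.97 to -1.24, with an edgeR adjusted p of 0.0020 to 0.15, and DESeq2 gave -1.10 (adjusted p = 9.9e-14). For cortex minus hippocampus the difference was -0.020 (edgeR adjusted p = 1).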

How the results depend on the processing

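Every one of the 30 leading genes kept its direction under the alternatives tried. The number of genes called was 0 in the edgeR fit. It was 60 with DESeq2, 20 with no filter, 2 with labelled sex as a covariate, 20 with the identifier series as a block and 27 in one fit of 3 regions, where 1911 rather than 1106 genes had an unadjusted p under 0.05. That fit of 3 regions had no block for the mouse, so regions of 1 mouse count as independent. In the series block DBA/1J library 1 and H5 library 2 are each alone in their series. Without both, a setting chosen after seeing the data, the plain edgeR fit called 0 genes. The number called ran from 0 to 221 without 1 library at a time, and the unadjusted count from 604 to 2809, both highest without DBA/1J library 3, by the edgeR test. The following alternatives were chosen after seeing the data. Without DBA/1J libraries 1 and 2, 3 genes were called. The unadjusted count was 728 without DBA/1J library 1 and H5 library 2, and 374 without library 2 of both groups. The DESeq2 count was 28 to 678 without 1 library at a time, 34 without DBA/1J libraries 1 and 2, 14 without library 2 of both groups, 33 without DBA/1J library 1 and H5 library 2, 110 with labelled sex and 53 with the striatal covariate. The labelled sex of H5 library 3 goes against its Ddx3y and Xist, so both settings with labelled sex rest on a label in doubt.

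Rorb passed with DESeq2 (log2 fold change 0.72, adjusted p = 1.0e-06). By edgeR it passed with no filter (0.73, adjusted p = 0.0096), the identifier series block (0.66, 0.022) and one fit of 3 regions (0.72, 0.0011). In the series block DBA/1J library 1 and H5 library 2 are each alone in their series and add nothing to the H5 difference. Without both, the plain edgeR fit gave 0.65 for Rorb (adjusted p = 0.88). The fit of 3 regions had no block for the mouse, so regions of 1 mouse count as independent. Without DBA/1J libraries 1 and 2, which leaves 1 control, Rorb was 0.84. Without 1 library at a time it was 0.65 to 0.86, with an edgeR adjusted p of 0.025 to 0.78. The difference between cortex and hippocampus was called for 0 to 4 genes without 1 mouse at a time. That between cortex and cerebellum was called for 0 to 24, for 3 with no block and for 52 with DESeq2. The cause of these shifts was not tested.

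Replicate numbers did not pair the libraries, since the same-number correlations of deviations were 0.12, -0.064 and 0.065. With the replicate block 0 genes were called, 992 had an unadjusted p under 0.05, and Rorb was at 0.73 (edgeR adjusted p = 0.22).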

Other observations

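Genes encoded in the mitochondrial genome, a list made after values were seen, were lower in H5 for all 13 members, with a median log2 fold change of -0.29. By edgeR 4 had an unadjusted p under 0.05, against 3.57% lower over all genes tested. The share of counts in these genes was 7.27% in DBA/1J library 1 and 4.30% to 4.86% in the other 5 libraries. All 12 oligodendrocyte markers were lower, with a median of -0.17, and their sum was highest in the same library. Of these markers 1, Mobp, had an unadjusted p under 0.05, against the same 3.57%. Cholesterol synthesis genes were higher for 11 and lower for 12 of 23 members, with 0 at an unadjusted p under 0.05 by edgeR or called by DESeq2.

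Pvalb, the calcium-binding protein of fast-spiking cells, held 45.8, 37.7 and 27.4 CPM in DBA/1J and 23.6, 23.4 and 27.9 CPM in H5 (log2 fold change -0.57), so that DBA/1J library 3 lay among the H5 libraries. It was the 1 of 12 GABA neuron markers with an unadjusted p under 0.05, against 3.57% lower over all genes tested.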
